A study of Mus musculus with 9 samples.

Results

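The comparison described here sets the omenta of 3 mice given IL-12-producing T cells into the peritoneal cavity against those of 3 mice given saline, and it uses 6 of the 9 RNA-seq libraries of the series. All 6 were C57BL/6 mice of 7 to 10 weeks that carried intraperitoneal tumours grown from 500000 cells of B16-OVA, a mouse melanoma line that expresses ovalbumin. On day 6 the treated mice (IP) received ovalbumin-specific OT-I T cells electroporated with IL-12 mRNA, the control mice received saline (PBS), and the omenta were collected 18 h later. Libraries were chosen by their treatment label and carry the mouse numbers of the labels: PBS 1, PBS 2 and PBS 3, and IP 2, IP 3 and IP 4. The other 3 libraries come from mice given the same cells into the blood (IV). They entered the filter on low counts, the scaling and the estimate of the spread, but not the contrast. The labels name no route for saline and describe no mice given T cells without the mRNA, so the cells, the cytokine and the injection cannot be told apart. Nothing in the labels says whether the libraries of a group came from separate experiments, and p-values measure the spread between these libraries.

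The omentum is a fatty apron of the abdominal lining with clusters of leukocytes, and tumour cells in the peritoneal fluid readily settle in it. IL-12 makes T and NK cells secrete interferon-gamma, which switches macrophages and other cells to an antimicrobial and inflammatory state, often together with NF-kappaB. Macrophages activated in this way are known to rewire their metabolism, to produce nitric oxide from arginine and to repress sterol synthesis, while interferon-exposed tumour cells slow their division. The interferon, chemokine, cytotoxic and fatty acid synthesis genes that dominate the response are left aside below in favour of the rest of the transcriptome. In bulk tissue, fewer cells of a type and less RNA per cell cannot be told apart.

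Saline and treated omenta differed across a large part of the transcriptome. Of 17123 genes tested, 3197 (18.7%) were higher and 2429 (14.2%) lower in IP at an edgeR adjusted p under 0.05, and 1762 (10.3%) and 864 (5.05%) differed by more than 1.5-fold in a test against that fold. The shares of 18.7% and 14.2% are the background for each list below. The median log2 fold change over all genes tested was 0.02. With library totals alone as the scale, 2466 were higher and 3561 lower around a median of -0.15, and limma on the deposited log2 CPM gave 2595 and 3488 around -0.14, so that directions are relative to TMM scaling. Leaving out PBS 1 brought the lower genes down to 1602, and so did leaving out IP 2. The genes higher by more than 1.5-fold made up 4.85%, 5.97% and 7.59% of the transcripts in PBS 1, PBS 2 and PBS 3 and 21.1%, 20.5% and 19.9% in IP 2, IP 3 and IP 4. Those lower by more than 1.5-fold made up 9.68%, 8.51% and 8.92% in PBS and 3.31%, 3.61% and 3.55% in IP. Values did not overlap between the groups for 53.1% of all genes tested. Absence of overlap in a gene named below is therefore no result by itself. Totals of the PBS and IP libraries ran from 25409924 to 44626843 counts, and that of IV 2 was 7379798. With the PBS and IP libraries alone in the fit, 3713 genes were higher and 3088 lower.

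IP 4 held pancreatic transcripts, and the comparison was repeated without it. The 24 tested genes of pancreatic acinar cells, which secrete digestive enzymes, summed to 22.4, 22.4 and 14.8 CPM (read counts per library size, scaled by TMM) in PBS 1, PBS 2 and PBS 3 and to 259, 317 and 23800.0 CPM in IP 2, IP 3 and IP 4. IP 2 and IP 3 thus lay above every PBS library too, and IP 4 far above both. None of the 24 passed edgeR's test across all libraries, nor did any in the fit without IP 4 that still held the IV libraries, which is the one used below. DESeq2 called 23 with all libraries, and edgeR called 22 when only the PBS libraries, IP 2 and IP 3 were fitted. Without IP 4, 2561 genes (14.6% of 17564 tested) were higher and 1713 (9.75%) lower. Of the genes called with all libraries, 2544 of 3197 higher genes (79.6%) and 1664 of 2429 lower genes (68.5%) were called again, and 0 changed sign. Among genes past the 1.5-fold test, 1730 of 1762 and 850 of 864 were called again. Below, counts without IP 4 stand beside the main ones.

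**Figure D1:**
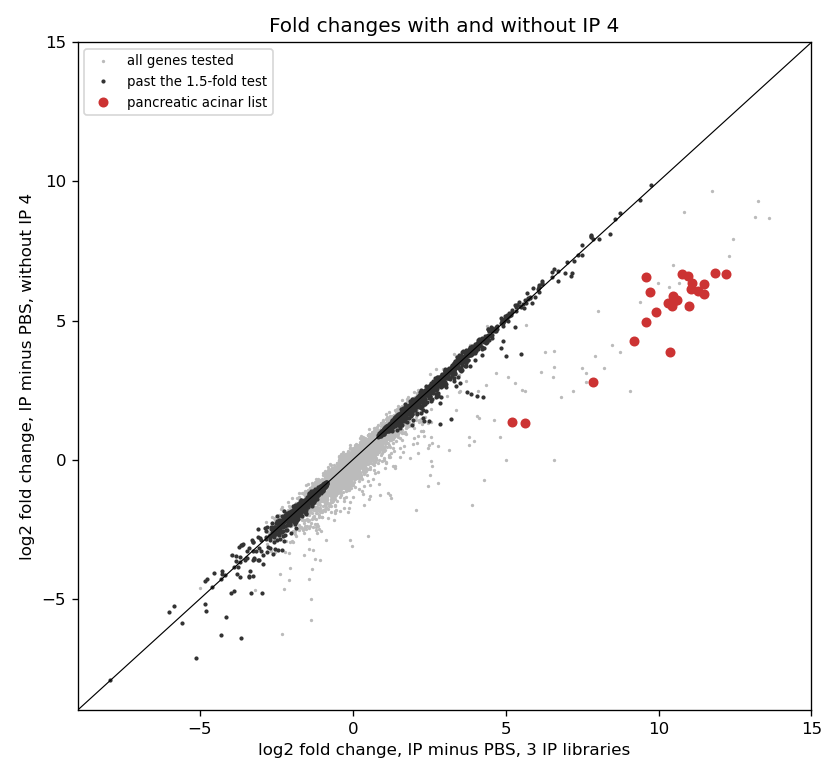
Log2 fold changes of IP against PBS for all genes tested, with all 3 IP libraries (horizontal axis) and without IP 4 (vertical axis), and the line of equal values. Genes past the 1.5-fold test (black) follow the line, while the 24 acinar genes (red) move from 5.20 to 12.19 with IP 4 down to 1.33 to 6.71 without it.

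The largest rises outside the interferon, chemokine and lipogenesis genes included genes known from activated macrophages and from neurons. In the order of libraries given above, Nos2, the inducible nitric oxide synthase, had 1.45, 1.31 and 3.96 CPM in PBS and 570.4, 564 and 478 CPM in IP. Ptgs2, the inducible cyclooxygenase that starts prostaglandin synthesis, had 0.328, 0.614 and 1.3 CPM in PBS and 71, 62.2 and 40.0 CPM in IP. In both genes every treated omentum lay more than an order of magnitude above every saline omentum, and the log2 fold changes were 7.87 ± 1.01 (SE; edgeR adjusted p = 0.000707) and 6.20 ± 0.51 (edgeR adjusted p = 2.70e-05). Absence of overlap was a condition for entering these largest rises.

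Ptx3, a secreted pattern recognition protein, had 0.956, 3.07 and 2.6 CPM in PBS and 163, 125 and 156 CPM in IP. Car4, a membrane-bound carbonic anhydrase, had 0.437, 0.23 and 0.427 CPM in PBS and 21, 16.8 and 28.2 CPM in IP, and Inhba, which encodes the subunit of activin A, had 0.765, 0.0768 and 1.3 CPM in PBS and 41.9, 30.9 and 19.4 CPM in IP. The spread within IP was widest for Inhba, whose IP 4 level was the lowest of the 3 but still far above saline. Hcar2, a receptor for ketone bodies and niacin found on adipocytes and macrophages, rose by 4.96 ± 0.52, and Acod1, the enzyme that makes the antimicrobial metabolite itaconate, by 4.94 ± 0.76. Il2ra, the inducible chain of the IL-2 receptor, rose by 4.69 ± 0.57, and Il12rb1, a chain of the IL-12 receptor, by 4.29 ± 0.67. These 4 had edgeR adjusted p-values from 8.44e-05 to 0.00162.

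Prph and Nefh, both known as intermediate filament genes of neurons, were also among the 25 largest rises. Prph had 6.25, 23.3 and 26.2 CPM in PBS and 455, 507 and 510.1 CPM in IP and Nefh 0.0546, 0.23 and 0.752 CPM in PBS and 12.4, 11.9 and 10.4 CPM in IP. Absence of overlap between the groups was a condition for entering that set. Prph lay far above saline in each treated omentum. The log2 fold changes were 4.72 ± 0.49 (edgeR adjusted p = 6.77e-05) for Prph and 4.95 ± 0.74 (edgeR adjusted p = 0.000541) for Nefh. Among 13 genes of Schwann cells and nerve, 5 were higher and 4 lower, so the list as a whole had no single direction. Gfap, another intermediate filament gene, rose by 2.12 ± 0.20 and Mag, a myelin glycoprotein, by 2.44 ± 0.29, while Mbp, the myelin basic protein, fell by 1.23 on the log2 scale (SE 0.12).

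The largest falls were smaller in size than the rises. Aqp4, a water channel, had 13, 7.87 and 9.35 CPM in PBS and 0.889, 0.72 and 0.506 CPM in IP, the steepest fall in the set at -3.83 ± 0.35 (edgeR adjusted p = 4.00e-05). Cck, which encodes the peptide cholecystokinin, had 1868, 2954 and 1527 CPM in PBS and 386, 502 and 417 CPM in IP, and was by far the most abundant of the 25 falls. Vipr1, a receptor of vasoactive intestinal peptide, had 22.3, 23.1 and 16.9 CPM in PBS and 2.6, 3.94 and 3.77 CPM in IP. Cd163, the haemoglobin scavenger receptor of resident macrophages, had 9.12, 5.11 and 19.8 CPM in PBS and 1.78, 2.07 and 3.1 CPM in IP. Saline values of Cd163 spread widely, from PBS 2 to PBS 3, and all lay above the treated ones, a condition for entering the set. The log2 fold change was -2.29 ± 0.51 (edgeR adjusted p = 0.00558), a call lost with no filter on low counts. Other falls among the 25 were Abca12, a lipid transporter (-2.64 ± 0.23), Azgp1, a secreted glycoprotein (-2.63 ± 0.21), Coq8a, an enzyme of coenzyme Q synthesis (-2.30 ± 0.18), Pygm, the muscle glycogen phosphorylase (-2.17 ± 0.25), and Scn1a, a sodium channel (-2.38 ± 0.26).

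Tumour and leukocyte transcripts also shifted between the groups. The 14 tested melanosome genes summed to 34600, 33900 and 31300 CPM in PBS and 17000, 19000 and 18700 CPM in IP, with a median log2 fold change of -0.91. Ptprc, the pan-leukocyte marker CD45, had 55.3, 67.3 and 122 CPM in PBS and 191, 201 and 201 CPM in IP (1.27 ± 0.36, edgeR adjusted p = 0.0187), a call lost without PBS 1, PBS 2, IP 3 or IP 4 (up to 0.104) and on library totals alone. The part of these shifts in the changes below was not tested.

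**Figure D2:**
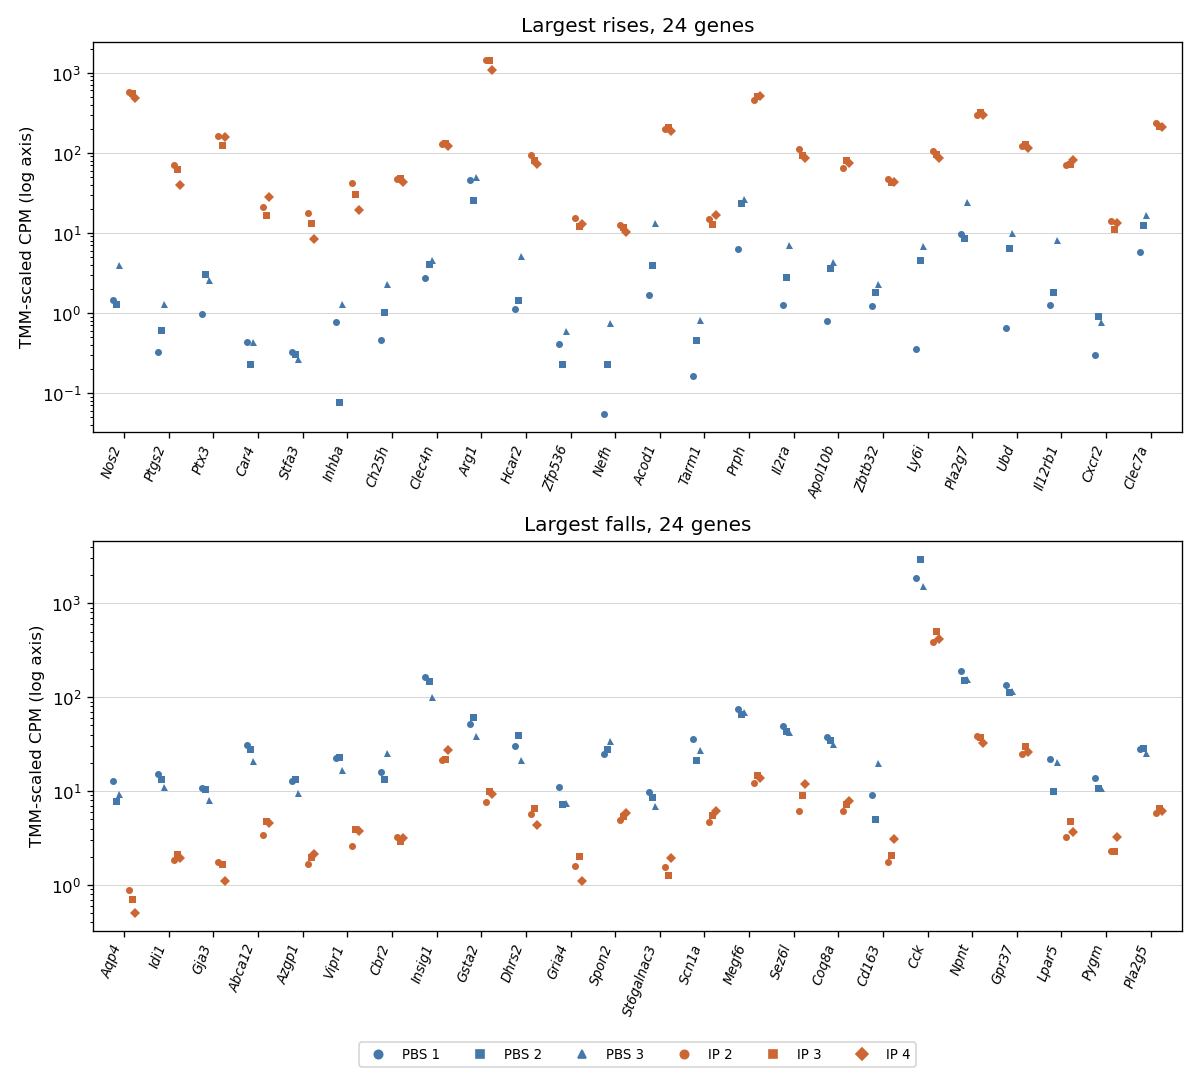
TMM-scaled CPM on a log axis of 24 of the 25 largest rises (top) and 24 of the 25 largest falls (bottom) that passed the test with and without IP 4, one point per library, PBS in blue and IP in orange. The treated omenta lie above (top) or below (bottom) the saline omenta, and absence of overlap was a condition for entering these sets. PBS 1 is the lowest saline library for genes such as Ly6i and Ubd.

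Cholesterol synthesis fell almost as a whole pathway. Of 24 tested genes of the pathway and its sterol-regulated partners, 0 were higher and 22 lower (21 lower without IP 4), with a median log2 fold change of -1.66, against 14.2% of all genes called lower. Cells make cholesterol from acetyl-CoA by way of mevalonate and squalene, and the transcription factor SREBP2 raises these genes when membranes run short of sterol. Idi1, an early isoprenoid enzyme, had 15.4, 13.4 and 11 CPM in PBS and 1.84, 2.16 and 1.92 CPM in IP. Sqle, the squalene epoxidase that limits the later steps, had 132, 124 and 89.7 CPM in PBS and 33.2, 32.2 and 35.6 CPM in IP. Every saline value lay above every treated value in Sqle, and in Idi1 too, where this was a condition of its choice. Groups did not overlap in 53.1% of all genes tested. The falls were -2.75 ± 0.34 (edgeR adjusted p = 0.000173) and -1.77 ± 0.16 (edgeR adjusted p = 3.83e-05).

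Insig1, which holds SREBP in the endoplasmic reticulum, fell together with the enzymes, from 138 ± 33 to 23.7 ± 3.42 CPM (SD, n = 3) (-2.54 ± 0.20). Cyp51 and Nsdhl, which act on the methyl groups of lanosterol and its products, changed by -1.94 ± 0.17 and -2.06 ± 0.17, and Srebf2, the gene of SREBP2 itself, by -1.15 ± 0.14. The members not called were Pmvk (0.10) and Ebp (0.33), named after their values were seen. Genes of sterol export and its control split into 6 higher and 3 lower of 11. Ch25h, which makes the antiviral oxysterol 25-hydroxycholesterol, had 0.464, 1.04 and 2.28 CPM in PBS and 46.4, 48.4 and 43.5 CPM in IP, a rise of 5.14 ± 0.42 (edgeR adjusted p = 2.70e-05). Abcg1, an exporter of cholesterol to lipoproteins, rose by 2.52 ± 0.22, while Scarb1, the receptor that takes up cholesterol from HDL, fell by 1.04 on the log2 scale. Without IP 4, 6 were higher and 1 lower, and 1 was also lower without PBS 1, PBS 3, IP 2 or IP 3.

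**Figure D3:**
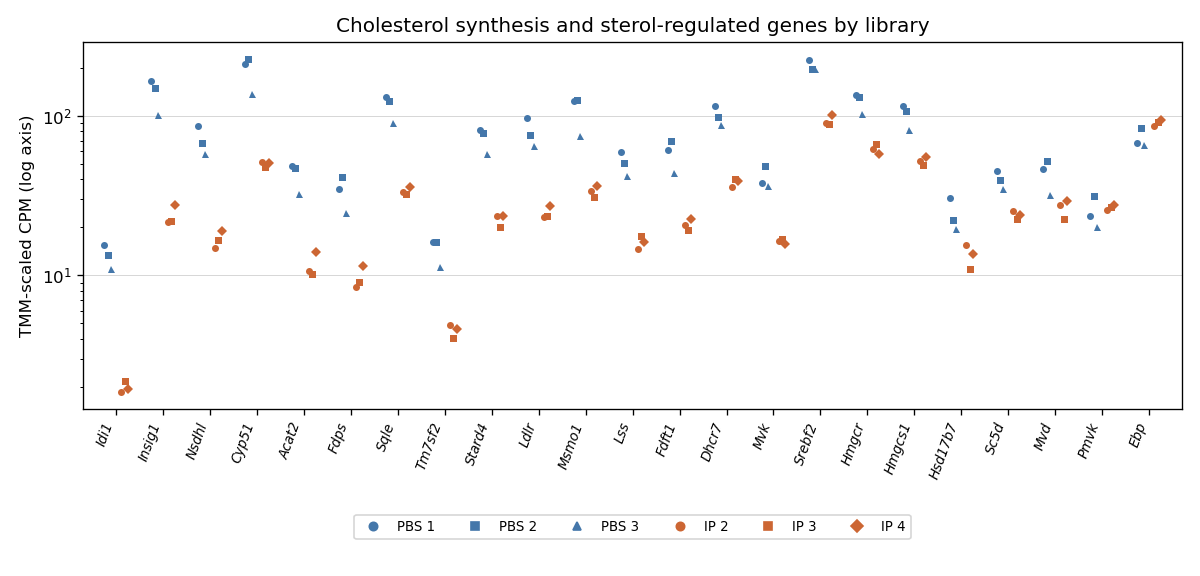
TMM-scaled CPM on a log axis of 23 of the 24 tested genes of cholesterol synthesis and its sterol-regulated partners, ordered by fold change, one point per library, PBS in blue and IP in orange. The treated points lie below the saline points from Idi1, at 1.84 to 2.16 against 11 to 15.4 CPM, through the called genes, and Pmvk and Ebp at the right were not called.

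Because these genes moved together, their start sites were searched for the core of a sterol element, the letters TCACNCCAC on either strand. RefSeq windows of 300 bases (GRCm38.p6, 250 before to 50 after each start) were at hand for 17 of the 24 genes, as 20 windows. A match was found in 1 window, that of Hmgcs1, the enzyme that makes HMG-CoA, and in 1.24% of all 32851 windows. Hmgcs1 fell by 0.95 on the log2 scale (edgeR adjusted p = 0.000754). Its window at chr13:119690101-119690400 on the plus strand of GRCm38.p6 is shown with the match in capitals, as the one place in the list where these letters occur near a start. The build of the window differs from the one named for the counts, and the match is a description of letters.
Hmgcs1: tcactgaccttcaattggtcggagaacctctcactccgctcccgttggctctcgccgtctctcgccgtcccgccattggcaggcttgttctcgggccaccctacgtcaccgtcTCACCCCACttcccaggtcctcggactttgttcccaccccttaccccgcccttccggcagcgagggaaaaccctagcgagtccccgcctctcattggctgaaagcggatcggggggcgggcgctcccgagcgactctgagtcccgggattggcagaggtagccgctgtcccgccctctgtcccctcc

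Some genes of the tricarboxylic acid cycle were lower, and some of sugar uptake and of the hypoxia response were higher. Of 17 genes of the tricarboxylic acid cycle, 0 were higher and 8 lower (6 without IP 4), with a median of -0.39. Idh2, the mitochondrial NADP-dependent isocitrate dehydrogenase, had 419.6, 533 and 366 CPM in PBS and 147, 161 and 174 CPM in IP (-1.45 ± 0.18, edgeR adjusted p = 0.000147). Idh3a, of the NAD-dependent counterpart, changed by -0.87 ± 0.13. Of 37 nuclear genes of the respiratory chain, 0 were higher and 3 lower, a share below the 14.2% of all genes called lower. One of the 3 was Ndufs1, a subunit of complex I (-0.78 ± 0.12). Without IP 4, and likewise without PBS 1, IP 2 or IP 3, 1 of the 37 was lower, and without PBS 3 7 were. On library totals alone, 16 cycle genes and 13 respiratory chain genes were lower.

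Among 18 genes of fatty acid oxidation, 1 was higher and 5 lower, with and without IP 4, and 11 were lower on library totals alone. In the main fit, 18.7% of all genes tested were higher and 14.2% lower. Ppargc1a, the coactivator of mitochondrial genes, had 314, 267 and 262 CPM in PBS and 137, 153 and 170.3 CPM in IP (-0.87 ± 0.16, edgeR adjusted p = 0.00197). Of 17 glycolysis genes, 6 were higher and 0 lower, with and without IP 4, led by glucose entry and lactate exit. Hk3, a hexokinase of myeloid cells, had 6.23, 10.6 and 32.3 CPM in PBS and 273, 283 and 303 CPM in IP, and Slc16a3, the lactate exporter MCT4, had 45.7, 38.5 and 41.1 CPM in PBS and 241, 227 and 188 CPM in IP. Slc2a1, the glucose transporter GLUT1, rose by 1.35 ± 0.20 and Pfkfb3, which makes the activator of phosphofructokinase, by 1.66 ± 0.20. The abundant middle enzymes differed little, as for Gapdh (-0.08 ± 0.16, edgeR adjusted p = 0.759) and Aldoa (0.08 ± 0.15, edgeR adjusted p = 0.726).

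Of 15 genes of the hypoxia response, which HIF transcription factors induce, 10 were higher and 0 lower, with and without IP 4. Egln3, an oxygen-sensing prolyl hydroxylase, had 5.6, 4.91 and 8.43 CPM in PBS and 102, 88 and 55.7 CPM in IP. Adm, the vasodilator peptide adrenomedullin, had 2.35, 2.38 and 2.17 CPM in PBS and 9.55, 11 and 8.83 CPM in IP, and Vegfa, the vascular growth factor, had 37.9, 29.3 and 34.8 CPM in PBS and 101, 93.8 and 72.3 CPM in IP. IP 4 was the lowest treated library in all 3 genes, still above every saline one. Their log2 fold changes were 3.69 ± 0.41, 2.09 ± 0.20 and 1.39 ± 0.18, with edgeR adjusted p-values of at most 0.000237.

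Amino acid and lipid mediator pathways changed at single enzymes. Arg1, which splits arginine to ornithine and urea, had 46, 25.8 and 50.2 CPM in PBS and 1438, 1433 and 1072 CPM in IP (5.01 ± 0.84, edgeR adjusted p = 0.00218), so that both arginine-consuming enzymes, Nos2 and Arg1, rose. Slc7a2, an arginine importer, rose by 3.52 ± 0.52, Ass1, which rebuilds arginine from citrulline, by 1.19 ± 0.13, and Gch1, which starts synthesis of the cofactor of nitric oxide synthase, by 2.05 ± 0.23. In all, 8 of 17 genes of arginine and polyamine metabolism were higher and 2 lower (8 and 1 without IP 4). Of 13 genes of tryptophan, NAD and itaconate metabolism 6 were higher and 2 lower (5 and 1 without IP 4). Nampt, the salvage enzyme of NAD synthesis, had 133, 181 and 181 CPM in PBS and 728, 737 and 659 CPM in IP, a rise of 2.10 ± 0.16 (edgeR adjusted p = 2.45e-05).

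Eicosanoid genes went in both directions. Of 22 tested, 12 were higher and 5 lower (12 and 4 without IP 4), and 2 or 3 were lower without PBS 1, PBS 3, IP 2 or IP 3. Among all genes tested the shares were 18.7% higher and 14.2% lower. Pla2g4a, the phospholipase that frees arachidonic acid, rose from 6.86 ± 3.37 to 45.1 ± 3.89 CPM (SD, n = 3), Tbxas1, the thromboxane synthase, by 2.30 ± 0.25, and Slco2a1, a prostaglandin transporter, by 1.78 ± 0.17. Hpgds, which makes prostaglandin D2, went the other way, with 85.7, 80.0 and 61.8 CPM in PBS and 18.2, 20.1 and 22.3 CPM in IP (-1.91 ± 0.17, edgeR adjusted p = 3.28e-05). Every treated omentum thus held less Hpgds and more Ptgs2 message than every saline omentum. For Ptgs2 this was a condition for entering the largest rises.

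Stress-response genes rose in several branches, but in the unfolded protein response the share higher lay near that of all genes tested. Of 20 antioxidant genes, the targets of NRF2 among them, 13 were higher and 1 lower (12 and 1 without IP 4). Hmox1, the haem-degrading oxygenase, had 61.7, 67.6 and 73 CPM in PBS and 836, 767 and 689 CPM in IP, and Osgin1, an oxidative stress response gene, had 5.43, 8.18 and 9.55 CPM in PBS and 83.6, 69.8 and 69.6 CPM in IP. The groups stood far apart in both, at 3.50 ± 0.31 (edgeR adjusted p = 3.28e-05) and 3.26 ± 0.23 (edgeR adjusted p = 1.86e-05). All 6 subunits of the phagocyte NADPH oxidase, the enzyme of the oxidative burst, were higher, with and without IP 4. Its membrane subunit Cybb had 72.5, 42.2 and 132 CPM in PBS and 337, 349 and 303 CPM in IP (2.00 ± 0.32, edgeR adjusted p = 0.000868).

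Of 19 genes of the integrated stress response, 13 were higher and 1 lower (12 and 0 without IP 4). Slc7a11, the cystine importer, had 3.22, 2.19 and 3.07 CPM in PBS and 23.5, 24.9 and 25.5 CPM in IP, and Cebpb, a transcription factor of inflammation and stress, had 15.6, 19.1 and 24.6 CPM in PBS and 156, 116 and 93.5 CPM in IP. Ddit3, the factor CHOP, rose by 1.72 ± 0.23 and Atf5 by 1.25 ± 0.18. Of 14 heat shock genes 7 were higher and 0 lower (6 without IP 4, 4 without IP 3), led by Hspa1a, an inducible HSP70 (3.22 ± 0.39), whose near-identical neighbour Hspa1b may share reads, and Hspb1 (2.31 ± 0.32). Of 20 genes of the unfolded protein response 3 were higher and 1 lower (5 higher without PBS 2), against 18.7% and 14.2% of all genes tested. The higher ones thus lie near the general share. The median of the unfolded protein response was 0.06 and turned to -0.11 on library totals alone. Xbp1, its central transcription factor, rose by 0.81 ± 0.14, and Atf6, one of its sensors, fell by 0.85 on the log2 scale.

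More iron genes were higher than lower. Of 16 tested, 7 were higher and 2 lower (5 and 1 without IP 4), and Cd163 was one of the 2 lower. Over all genes tested, 18.7% were higher and 14.2% lower, and the lower iron genes lie near that share. Slc11a1, the metal transporter of phagosomes, had 17.4, 16.9 and 36.7 CPM in PBS and 125, 126 and 141 CPM in IP (2.46 ± 0.27, edgeR adjusted p = 8.73e-05). Fth1, the ferritin heavy chain, was among the largest rises by absolute level, at 2287, 2666 and 2138 CPM in PBS and 5116, 5248 and 4406 CPM in IP (1.06 ± 0.21, edgeR adjusted p = 0.00325). Hba-a1 and Hbb-bs, haemoglobin genes that mark red cells and share reads with close copies, stood at 1.04, 0.883 and 1.75 CPM in PBS and 3.46, 6.05 and 6.17 CPM in IP and 4.75, 5.8 and 5.89 CPM in PBS and 11.7, 22.8 and 20.2 CPM in IP, respectively, higher in IP by 2.07 ± 0.53 and 1.73 ± 0.49. The Hbb-bs call was lost without PBS 1, PBS 2, PBS 3, IP 3 or IP 4. Their part in the iron genes was not tested.

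Genes that feed back on NF-kappaB rose nearly without exception. NF-kappaB dimers enter the nucleus once the inhibitor IkappaB is degraded, and they then induce their own inhibitors, which ends the signal. Of 19 tested feedback genes and subunits 18 were higher and 0 lower, with and without IP 4, with a median of 1.40, against 18.7% of all genes called higher. Nfkbia, the gene of IkappaB-alpha, had 36.3, 57.5 and 47.2 CPM in PBS and 201, 161 and 149 CPM in IP. Tnfaip3, the ubiquitin-editing enzyme A20, had 6.64, 8.48 and 14.8 CPM in PBS and 65.5, 50.01 and 50.7 CPM in IP, and Bcl3, a nuclear cofactor of NF-kappaB, had 5.16, 7.75 and 10.7 CPM in PBS and 67.5, 49.8 and 49.7 CPM in IP. Treated omenta were higher throughout, by 1.86 ± 0.21 (edgeR adjusted p = 9.50e-05), 2.47 ± 0.29 (edgeR adjusted p = 0.000126) and 2.82 ± 0.25 (edgeR adjusted p = 3.53e-05). The member not called was Tnip1 (0.14), named after its value was seen.

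The start sites of these genes were searched for a form of the kappaB motif chosen after these windows had been looked at, the letters GGG and TTTCC with any NN between them, on either strand. Windows were at hand for 16 of the 19 genes, and 5 of them (Cyld, Nfkb2, Nfkbia, Rel and Tnfaip3) held a match, in 7 of 21 windows. The letters occur in 1.63% of all 32851 windows, but since their form was chosen on the windows of these genes, the shares are no comparison. The windows of Nfkbia (chr12:55492598-55492897, minus strand) and Tnfaip3 (chr10:19015361-19015660, minus strand), the inhibitors whose levels are given above, are shown 5′ to 3′ along the gene with the match in capitals. Both matches read in the reverse orientation. A match is not evidence of binding, which these data did not measure.
Nfkbia: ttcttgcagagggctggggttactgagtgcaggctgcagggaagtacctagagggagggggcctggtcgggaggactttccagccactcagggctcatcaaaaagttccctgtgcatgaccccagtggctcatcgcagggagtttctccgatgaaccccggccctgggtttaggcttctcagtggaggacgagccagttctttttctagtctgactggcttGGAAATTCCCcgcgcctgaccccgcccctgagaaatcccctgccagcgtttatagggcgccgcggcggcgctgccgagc
Tnfaip3: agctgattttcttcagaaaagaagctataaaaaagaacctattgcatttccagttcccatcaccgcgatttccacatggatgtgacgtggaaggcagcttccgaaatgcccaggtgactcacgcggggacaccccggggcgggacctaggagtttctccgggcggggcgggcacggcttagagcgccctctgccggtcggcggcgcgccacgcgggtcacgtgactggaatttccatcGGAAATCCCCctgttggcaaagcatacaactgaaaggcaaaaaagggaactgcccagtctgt

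Immediate early genes, the first to be transcribed after a signal, were higher in 17 of 24 cases and lower in 2, with and without IP 4. Atf3, a stress-induced transcription factor, had 7.51, 19 and 15.2 CPM in PBS and 239, 213 and 167 CPM in IP, Jun, a subunit of AP-1, had 23.1, 24.1 and 37.8 CPM in PBS and 220.1, 208 and 177 CPM in IP, and Zfp36, which destabilises cytokine mRNAs, had 16.1, 22.5 and 25.2 CPM in PBS and 149.7, 119.9 and 111 CPM in IP. All 3 rose in every treated omentum, by 3.89 ± 0.31, 2.83 ± 0.20 and 2.57 ± 0.19, with edgeR adjusted p-values of at most 2.67e-05. The 2 that fell, named after their values were seen, were the orphan nuclear receptors Nr4a1 (-1.04 ± 0.20, edgeR adjusted p = 0.00217) and Nr4a3 (-1.28 ± 0.18, edgeR adjusted p = 0.00039), which antigen receptor signals induce in lymphocytes. Of 13 inhibitors of cytokine signalling 8 were higher and 0 lower (7 without IP 4), including Socs3, which restrains STAT3 (2.75 ± 0.17), and Cish, a target of STAT5 (2.22 ± 0.19).

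Most listed sensors of microbes and damage and genes of inflammatory cell death were higher. Of 22 pattern recognition receptors 17 were higher and 0 lower, with and without IP 4. Clec4n, the lectin dectin-2, had 2.76, 4.11 and 4.57 CPM in PBS and 129, 131 and 120.5 CPM in IP, and Clec7a, dectin-1, had 5.68, 12.6 and 16.6 CPM in PBS and 239, 214 and 207 CPM in IP. No saline omentum came near the treated ones, and the rises were 5.05 ± 0.23 (edgeR adjusted p = 3.70e-06) and 4.24 ± 0.32 (edgeR adjusted p = 2.45e-05). Both genes belong to the 25 largest rises, for which absence of overlap was a condition. Of 20 genes of the inflammasome and of lytic cell death 18 were higher and 1 lower (17 and 1 without IP 4). Casp4, the sensor of bacterial lipopolysaccharide in the cytosol, rose by 3.12 ± 0.24, Gsdmd, the pore protein of pyroptosis, by 2.66 ± 0.25, and Mlkl, the pore protein of necroptosis, from 106 ± 22.6 to 404 ± 25 CPM (SD, n = 3) (1.93 ± 0.17).

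Apoptosis genes were higher in 18 of 24 cases (17 without IP 4) and lower in 0, on both sides of the balance. Fas, a death receptor, rose by 2.74 ± 0.25 and Pmaip1, the death-promoting protein NOXA, by 2.86 ± 0.26. The protective Bcl2l1, which encodes BCL-XL, rose by 1.37 ± 0.14 and Bcl2a1b by 3.10 ± 0.27, the latter from a family of near-identical copies that may share reads. Of 16 p53 targets 7 were higher and 1 lower (7 and 0 without IP 4), against 18.7% and 14.2% of all genes tested. Cdkn1a, the cell cycle inhibitor p21, had 71.1, 98.4 and 84.5 CPM in PBS and 399, 372 and 310.5 CPM in IP (2.09 ± 0.22, edgeR adjusted p = 6.54e-05).

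**Figure D4:**
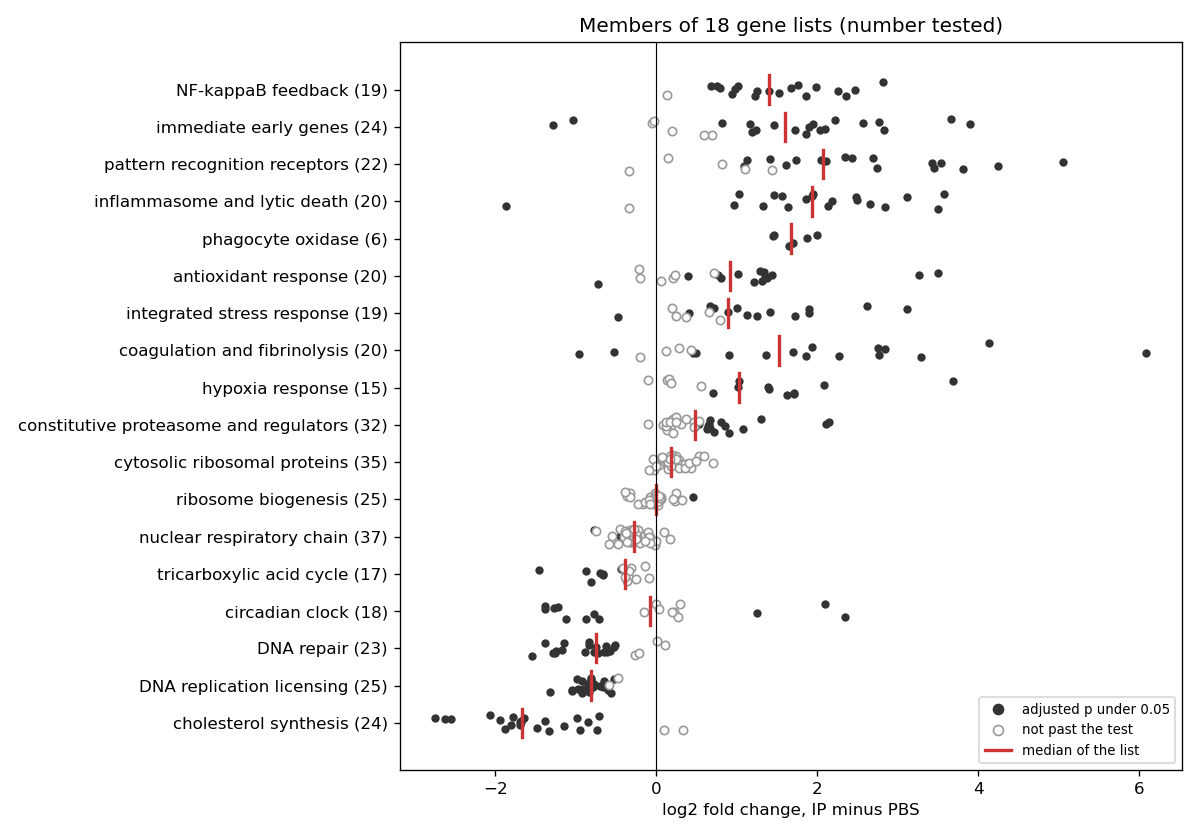
Log2 fold changes of IP against PBS for the tested members of 18 gene lists, one point per gene, filled where the edgeR adjusted p was under 0.05, with the median of each list as a red bar. Lists of NF-kappaB feedback and pattern recognition lie mostly to the right of 0, ribosomal and ribosome biogenesis genes cluster around it, and DNA replication, DNA repair and cholesterol synthesis genes lie to the left.

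Genes of DNA replication and repair were lower in IP by modest amounts. Of 25 genes of replication licensing and fork proteins 0 were higher and 23 lower, with a median of -0.81, and 16 were lower without IP 4 and 15 without IP 2. Mcm2, a subunit of the replicative helicase, had 349, 368 and 316 CPM in PBS and 127, 161 and 126 CPM in IP (-1.32 ± 0.17, edgeR adjusted p = 0.000194). Of 23 repair genes 0 were higher and 19 lower (18 without IP 4), with a median of -0.75. Fancd2, of the crosslink repair pathway, had 52.7, 42.7 and 46.8 CPM in PBS and 15.5, 18.5 and 14.7 CPM in IP (-1.55 ± 0.15, edgeR adjusted p = 4.86e-05), and Brca1 had 378, 436 and 326 CPM in PBS and 135, 159 and 142 CPM in IP (-1.39 ± 0.16, edgeR adjusted p = 0.000105). Rrm1 and Rrm2, the subunits of ribonucleotide reductase, changed by -1.10 ± 0.13 and -1.22 ± 0.18, and 8 of 16 nucleotide synthesis genes were lower and 1 higher (6 and 1 without IP 4, 5 and 1 without IP 2). Beside these falls stands that of the melanosome genes given above, whose part in them was not tested.

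Few ribosomal genes passed the test. Of 35 cytosolic ribosomal protein genes 0 were called by edgeR, with a median of 0.19, and of 25 ribosome biogenesis genes 1 was higher, Rrp12 (0.45 ± 0.15, edgeR adjusted p = 0.0415), a call that disappeared when any PBS or IP library was left out and on library totals alone. At an unadjusted p under 0.05, 2 of the 35 ribosomal protein genes differed, and DESeq2 called 1 of them. With edgeR, 4 were higher with the replicate number as a block (median 0.38), 2 with the PBS and IP libraries alone, and up to 3 with 1 library left out. Protein breakdown genes moved more. Of 32 genes of the constitutive proteasome and its regulators 15 were higher and 0 lower, 10 without IP 4, 7 without PBS 1, 8 without PBS 3 and 8 without IP 3. The regulators Psme1 and Psme2, which interferon-gamma is known to induce, led with 2.14 ± 0.26 and 2.11 ± 0.31, and the core subunit Psma5 had 55.8, 83.8 and 59.2 CPM in PBS and 159, 169.6 and 162 CPM in IP (1.30 ± 0.20, edgeR adjusted p = 0.000559).

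Lysosomal genes were higher in 15 of 28 cases and lower in 1 (12 and 1 without IP 4), and on library totals alone 12 were higher and 4 lower. Ctss, a protease of antigen processing, had 90.8, 158 and 229.5 CPM in PBS and 961, 910.2 and 867 CPM in IP (2.52 ± 0.28, edgeR adjusted p = 9.77e-05), and Gla, a lysosomal galactosidase, rose by 2.12 ± 0.14. The more widely expressed Ctsb, also among the largest absolute rises, went from 1245 ± 152 to 2793 ± 112 CPM (SD, n = 3) (1.17 ± 0.13). Lamp1, a structural membrane protein of lysosomes, differed by 0.12 ± 0.12 (edgeR adjusted p = 0.474).

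More circadian clock genes were lower than higher. The clock rests on the activators CLOCK and BMAL1 and on a set of repressors and outputs that feed back on them. Of 18 tested clock genes 3 were higher and 8 lower (3 and 7 without IP 4), with a median of -0.08. Over all genes tested, 18.7% were higher and 14.2% lower, and the higher clock genes lie near that share. Tef, an output factor of the PAR bZIP family, had 90.3, 80.5 and 72.7 CPM in PBS and 26.6, 31.9 and 35.1 CPM in IP, and its relatives Dbp and Hlf, named after their values were seen, had 3.5, 6.22 and 2.72 CPM in PBS and 1.25, 1.99 and 1.89 CPM in IP and 4.07, 4.61 and 3.07 CPM in PBS and 1.35, 1.61 and 1.55 CPM in IP. Nr1d1, the repressor REV-ERB-alpha, had 10.7, 11.7 and 9.88 CPM in PBS and 4.84, 3.94 and 4.99 CPM in IP. Saline and treated omenta did not overlap in these 4 genes, as in 53.1% of all genes tested. In the order named, the log2 fold changes were -1.38 ± 0.18 (edgeR adjusted p = 0.000229), -1.27 ± 0.37 (edgeR adjusted p = 0.0213), -1.38 ± 0.31 (edgeR adjusted p = 0.00598) and -1.22 ± 0.19 (edgeR adjusted p = 0.000799). The Dbp call was lost without PBS 2, IP 2 or IP 4, at up to 0.0924.

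Nfil3, a factor that competes with the PAR bZIP proteins for the same sites and is also induced by cytokines, went the opposite way, with 9.26, 14.9 and 13.1 CPM in PBS and 68.7, 61.3 and 58.5 CPM in IP. It rose by 2.34 ± 0.21 (edgeR adjusted p = 3.53e-05), and Per2, a core repressor at a low level, by 2.09 ± 0.30 (edgeR adjusted p = 0.000392). Arntl, the gene of BMAL1, and Clock, both named after their values were seen, differed by 0.22 ± 0.16 (edgeR adjusted p = 0.34) and -0.15 ± 0.17 (edgeR adjusted p = 0.544). The sources used here do not say at what hour of the day omenta were collected, so a difference in collection time between the groups was not tested.

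**Figure D5:**
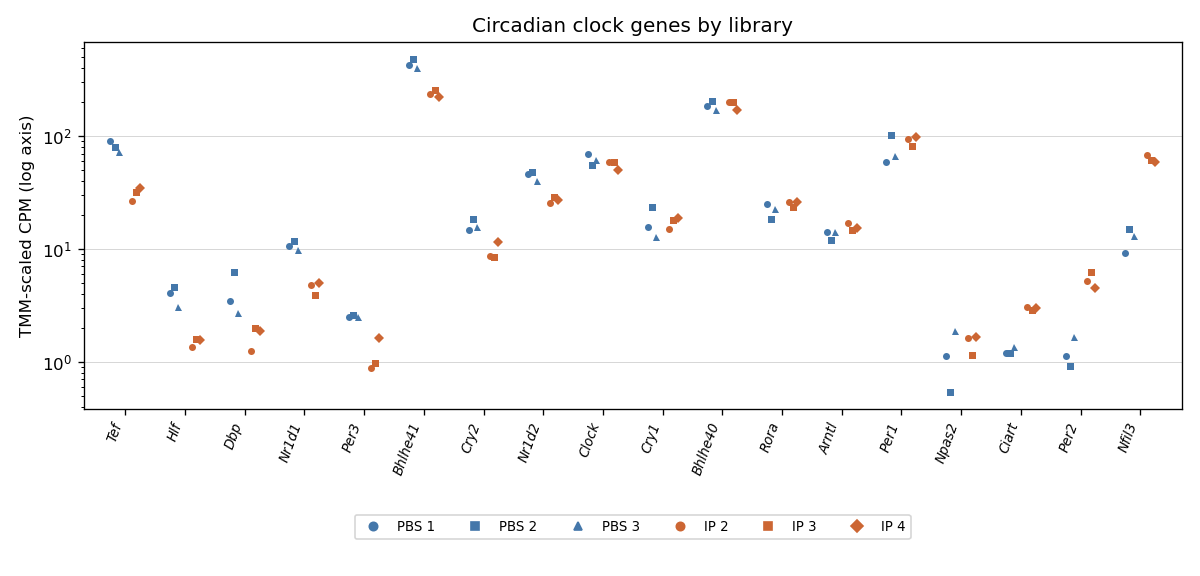
TMM-scaled CPM on a log axis of the 18 tested clock genes, ordered by fold change, one point per library, PBS in blue and IP in orange. Tef, Hlf, Dbp and Nr1d1 at the left lie lower in all 3 treated omenta, Clock and Arntl in the middle lie close together, and Per2 and Nfil3 at the right lie higher.

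Clotting, matrix and growth factor genes changed member by member. Of 20 genes of coagulation and fibrinolysis 14 were higher and 2 lower (13 and 2 without IP 4, 9 and 2 without PBS 1). The protease inhibitor Serpine2 had 3.39, 4.53 and 4.43 CPM in PBS and 75.2, 80.4 and 61.4 CPM in IP and Plaur, the urokinase receptor, had 13.9, 14.5 and 13.6 CPM in PBS and 114, 90.0 and 79.9 CPM in IP. Both stood well apart from saline, at 4.14 ± 0.17 (edgeR adjusted p = 2.85e-06) and 2.76 ± 0.25 (edgeR adjusted p = 3.88e-05). Procr, the endothelial receptor of protein C, rose by 1.86 ± 0.20, and Thbs1, a matrix protein released by platelets and other cells, by 2.27 ± 0.28. Clec1b, a platelet receptor, was the only one of 4 platelet genes called, and Pf4 had 24.3, 13.4 and 14.3 CPM in PBS and 29.2, 30.7 and 23.8 CPM in IP, with overlapping groups.

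Of 25 matrix proteases and inhibitors 10 were higher and 3 lower (10 and 2 without IP 4), with a median of 0.13 that turned to -0.04 on library totals alone. Adam8, a protease of myeloid cells, had 12.1, 10.7 and 14.7 CPM in PBS and 187, 175 and 181 CPM in IP, and Timp1, the inhibitor of matrix metalloproteases, had 27.7, 42.3 and 30.8 CPM in PBS and 507, 454 and 425 CPM in IP. Mmp12, the macrophage elastase, rose by 4.23 ± 0.49. The abundant Timp2 had 339, 298 and 333 CPM in PBS and 188, 179 and 165 CPM in IP (-0.87 ± 0.12, edgeR adjusted p = 0.000295). Matrix genes split into 8 higher and 3 lower of 28 (7 and 2 without IP 4, 6 and 6 on library totals alone, 5 lower without PBS 2, 1 lower without PBS 1 or IP 2), and Lox, which crosslinks collagen, rose by 2.38 ± 0.23. Of all genes tested, 18.7% were higher and 14.2% lower. The lower proteases, inhibitors and matrix genes lie near that share.

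In the TGF-beta, activin and BMP group 15 of 26 genes were higher and 1 lower (13 and 0 without IP 4, 4 lower without IV 4). Along with Inhba, its secreted antagonists Fst (2.88 ± 0.27) and Fstl3 (2.36 ± 0.23) rose, and Tgfb1 rose by 0.93 ± 0.13. Of 29 Wnt genes 4 were higher and 6 lower (4 and 3 without IP 4, and 2 or 3 lower without PBS 1, PBS 3, IP 2 or IP 3), shares not far from the 18.7% and 14.2% of all genes tested. Lgr5, a receptor of R-spondins, had 2.76, 1.19 and 2.09 CPM in PBS and 0.362, 0.169 and 0.0674 CPM in IP, and Rspo3, one of these ligands, had 0.492, 0.845 and 0.854 CPM in PBS and 3.89, 4.23 and 3.91 CPM in IP. The receptor fell by 3.30 on the log2 scale (edgeR adjusted p = 0.00235) and the ligand rose by 2.45 ± 0.31 (edgeR adjusted p = 0.000177), both at low levels. Met, the receptor of hepatocyte growth factor, had 1349.6, 1145 and 1134 CPM in PBS and 408, 448 and 392 CPM in IP (-1.54 ± 0.19, edgeR adjusted p = 0.000154). Smo, the signal transducer of the Hedgehog pathway, fell by 1.20 on the log2 scale, one of 4 lower genes of 10 (2 without PBS 1, IP 2 or IP 4).

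Purinergic genes, which handle extracellular ATP and adenosine, were higher in 11 of 20 cases and lower in 1 (10 and 1 without IP 4). Entpd1, the ATP-degrading surface enzyme CD39, had 11.5, 12 and 21.2 CPM in PBS and 97.9, 95.9 and 93.3 CPM in IP, a rise of 2.68 ± 0.22 (edgeR adjusted p = 2.73e-05). Adora2b, a low-affinity adenosine receptor, rose by 2.15 ± 0.30, and Adk, the kinase that removes adenosine inside cells, fell by 0.80 on the log2 scale. In complement, 13 of 22 genes were higher and 2 lower (13 and 0 without IP 4, 0 lower without IP 3), against 18.7% and 14.2% of all genes tested. Among the higher were the classical pathway protease C1ra (2.35 ± 0.21) and the receptor C3ar1 (2.15 ± 0.22).

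Markers of resident cells were called in both directions. Of 22 adipocyte genes 4 were higher and 4 lower, shares near the 18.7% and 14.2% of all genes tested, and without IP 4 the counts were 2 and 5 (2 higher also without PBS 1 or PBS 2). Mgll, the lipase that finishes fat breakdown, had 1246, 1202 and 1233 CPM in PBS and 312, 354 and 329 CPM in IP, and Adrb3, the adrenergic receptor that starts it, had 4.04, 1.69 and 5.18 CPM in PBS and 0.165, 0.847 and 0.404 CPM in IP. Both fell, with log2 fold changes of -1.89 ± 0.20 (edgeR adjusted p = 6.43e-05) and -2.99 ± 0.54 (edgeR adjusted p = 0.00174). Lpl, the lipoprotein lipase that macrophages also make, rose by 1.31 ± 0.19. Adipoq, the defining adipocyte hormone, had 47.5, 38.3 and 80.2 CPM in PBS and 29.4, 35.8 and 59.7 CPM in IP (-0.41 ± 0.31, edgeR adjusted p = 0.346), with overlapping groups and IP 4 the highest treated library.

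Of 23 blood endothelial genes 8 were higher and 3 lower (5 and 1 without IP 4, 5 and 0 without PBS 1 or IP 3, 0 lower without IP 2). Over all genes tested, 18.7% were higher and 14.2% lower. Flt1, the VEGF receptor that monocytes also carry, had 11.3, 11.2 and 13.6 CPM in PBS and 68, 68.3 and 61.2 CPM in IP, and the pan-endothelial Cdh5 had 19.3, 19.7 and 19.6 CPM in PBS and 30.1, 40.2 and 33.1 CPM in IP. The rises were 2.45 ± 0.14 (edgeR adjusted p = 9.55e-06) and 0.82 ± 0.19 (edgeR adjusted p = 0.00812). Of 21 mesothelial genes 4 were higher and 3 lower (3 and 4 without IP 4, 2 higher without PBS 1, IP 2 or IP 3, 5 lower without PBS 2), and on library totals alone 4 and 6. The main counts of 4 and 3 lie near the shares of all genes tested. Msln, the defining mesothelial marker, had 15.4, 14.1 and 17.5 CPM in PBS and 22.2, 24.3 and 34.8 CPM in IP (0.79 ± 0.19, edgeR adjusted p = 0.00954). Lyve1, a receptor of lymphatic vessels and of some resident macrophages, had 24.2, 14.7 and 48.5 CPM in PBS and 8.3, 8.55 and 12.8 CPM in IP (-1.56 ± 0.37, edgeR adjusted p = 0.00836), and was not called with no filter on low counts.

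Mast cell and regulatory T cell lists rose in part. Of 10 mast cell genes 8 were higher and 0 lower (6 without IP 4, 5 without PBS 2), at low levels. Tpsb2, a tryptase, had 2.16, 2.03 and 2.7 CPM in PBS and 9.71, 11.3 and 6.44 CPM in IP and Hdc, which makes histamine and is shared with neutrophils and macrophages, had 9.07, 14.5 and 16.4 CPM in PBS and 72.2, 64.9 and 62.9 CPM in IP. Of 10 regulatory T cell genes 7 were higher and 0 lower (6 without IP 4), and those named, Il2ra and Tnfrsf18 (2.13 ± 0.27), are shared with activated T cells. The defining factor Foxp3, named after its value was seen, had 0.956, 1.92 and 3.43 CPM in PBS and 2.07, 1.82 and 2.7 CPM in IP (0.05 ± 0.50, edgeR adjusted p = 0.946), with overlapping groups. Ccr3 and Siglecf, markers of eosinophils, had 0.382, 0.23 and 0.447 CPM in PBS and 0.659, 1.1 and 6.13 CPM in IP and 0.137, 0.0384 and 0.224 CPM in PBS and 0.296, 0.508 and 3.27 CPM in IP. Both were highest in IP 4 by a wide margin, and both calls were lost without it, at edgeR adjusted p-values of 0.0915 and 0.195, as well as without PBS 2 and, for Siglecf, without PBS 1.

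Reference genes frame the scale of these changes. Gapdh, Tbp (0.17 ± 0.12), Ppia (-0.38 ± 0.22) and Hprt (0.41 ± 0.15) were not called, while Actb, the cytoskeletal actin often used for normalisation, had 1423, 1688 and 1704 CPM in PBS and 3494, 3480.2 and 3161 CPM in IP (1.07 ± 0.16, edgeR adjusted p = 0.000525). Actb was higher in every treated omentum, a condition for entering the 15 largest absolute rises. Tmsb10 and Tmsb4x, small actin-binding proteins, stood with it among the 15 largest absolute rises, at 1.56 ± 0.27 and 1.70 ± 0.27.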

How the data were processed

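Poly(A) RNA was made into directional libraries, per the labels' protocols. The submitters' processing notes list mm39, featureCounts, limma and STAR 2.7.9 without saying what each was used for. The sources used here do not say which annotation and strand setting served for counting. The authors deposited whole-number counts of 55359 genes in 9 libraries, used here as deposited, and a table of log2 CPM of 18833 genes scaled by library totals alone, used here only as an alternative. Symbols came from a GENCODE M21 table on GRCm38, which named 52083 genes and 17087 of the 17123 tested.

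Counts were fitted with edgeR 4.0.16 in R 4.3.3 (filterByExpr, TMM scaling, robust quasi-likelihood fit over all 9 libraries, 6 residual degrees of freedom), and IP was compared with PBS by two-sided tests, with Benjamini-Hochberg adjustment over all genes at 0.05 and glmTreat against 1.5-fold. Standard errors are approximate: the size of a log2 fold change over the root of its F statistic. CPM are TMM-scaled. The fit was tested on simulated counts with known changes. Alternatives used DESeq2 1.42.0 and limma 3.58.1 among others.

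The comparison, its 78 gene lists (1564 entries) and the rule for naming genes were chosen with earlier results of these data known. Genes named include the 25 largest rises and falls and the 15 largest by level. These were taken among genes that passed with and without IP 4 at a mean of at least 5 CPM. Their groups also had to be free of overlap, so non-overlap in these genes is no result. Up to 5 members of each list were named by p and 2 by level. Also named were up to 15 genes near absent in PBS, genes carried by IP 4, and a few reference and control genes. Pmvk, Ebp, Hmgcs1, Tnip1, Cyld, Nfkb2, Rel, Nr4a1, Nr4a3, Dbp, Hlf, Arntl, Clock and Foxp3 fall outside that rule and were chosen after their values were seen. Wnt10b and Coch, near absent in PBS, also fall outside the rule and were chosen likewise. Near-identical or overlapping genes may share reads. Promoter sequences are RefSeq's. Lists share members, and no list was tested as a set. A few genes that the rule names are not reported here, in the text or in the plots that label single genes, and they stay in every count.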

Additional observations from a re-analysis of the deposited data

How the results depend on the processing

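Under 21 alternative settings the genes higher in IP numbered 2466 to 3713 and the lower ones 1809 to 3561 when all libraries or all of PBS and IP were kept, against 3197 and 2429. Beyond 1.5-fold the counts were 1210 to 1931 and 590 to 1224. With 1 library left out at a time, the ranges were 2354 to 3622 higher, 1602 to 2947 lower, and 1320 to 1868 and 576 to 994 beyond 1.5-fold. The lower count of 1602, without PBS replicate 1 and again without IP replicate 2, is the only one of these more than 1.5 times from its main value, and fewer libraries entered those fits. The replicate number as a block, possible for the pairs numbered 2 and 3 only, left 2693 higher and 1809 lower genes (1566 and 692 beyond 1.5-fold). Deviations from the group means correlated at 0.113 for the pair numbered 2 and at -0.0423 for that numbered 3. Pairs of an IP and a PBS library with unequal numbers gave -0.0817 to 0.0562. So few pairs cannot tell whether libraries with the same number share more than the number. For 164 named genes the calls were followed through these settings. Genes named only under the other observations below, such as Rhov, Calb2 and Tff2, were not among them. Of the 150 of these past the test, 142 stayed past it under every setting that could test them, 8 lost the call under at least 1, and 0 reversed. Those 8 were Ccr3, Cd163, Dbp, Hbb-bs, Lyve1, Ptprc, Rrp12 and Siglecf. Many genes were named for passing with and without IP 4 or for a small p, so 142 of 150 does not measure the stability of all calls. Of all called genes, 79.6% of the higher and 68.5% of the lower ones were called again without IP 4. Of the 14 among the 164 that were not past the test, 4 passed it under at least 1 setting (Ebp, Hprt, Pf4 and Ppia). Thinning all counts to the smallest PBS or IP total gave 3118 and 2392, so depth differences among the 6 libraries moved the counts little, while groups of 3 limit what small changes can be called.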

Other observations

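A small set of genes went from next to nothing to a clear signal. With at most 3 counts in each PBS library and at least 30 in each IP library, 19 genes qualified, and 8 of them, among them Try5, Reg2, Reg3b, Tff2, Spink1, Reg3a and Pnliprp2, are genes of pancreas or gut whose level was far highest in IP 4. Of the others, Rhov had 1, 1 and 3 counts in PBS and 200, 81 and 321 in IP. Calb2, the calcium-binding protein calretinin known from neurons and mesothelial cells, had 2, 0 and 0 counts against 204, 107 and 100. Asb11 had 0, 0 and 1 against 97, 72 and 116, Mirt2, a non-coding RNA, 1, 1 and 3 against 102, 88 and 84, and the Wnt ligand Wnt10b 3, 0 and 2 against 86, 58 and 68. Coch, known from the inner ear and lymphoid tissue, had 1, 3 and 1 against 32, 38 and 31.

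Some genes outside the acinar list also stood far higher in IP 4. In 88 genes, the 24 tested acinar genes among them, the level of IP 4 was at least 10 times that of both IP 2 and IP 3. Of these, 51 were at 5 CPM or more in IP 4. Together the 88 made up 2.67% of the transcripts of IP 4. Most of that came from the acinar genes, which summed to 23800 CPM in IP 4. Of the 88, 5 had passed the test with all libraries. Most of these 5 were lower in IP than in PBS and had no more than 0.539 CPM in IP 4. A 10-fold spread within IP makes a call unlikely, and the count of 5 does not measure the reach of IP 4. The 10-fold limit leaves out Ccr3 and Siglecf, whose calls were lost without IP 4. Calb2 and Rhov were not among the genes set apart by IP 4, while Tff2, a peptide of gastric and pancreatic secretion, had 0, 0 and 0 counts in PBS, 44 in IP 2, 46 in IP 3 and 4469 in IP 4.

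Saline omenta were not alike in the genes that rose. The interferon genes set aside above summed to 1990 CPM in PBS 1, 4580 in PBS 2 and 6630 in PBS 3, against 38500, 40700 and 35600 CPM in IP 2, IP 3 and IP 4.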
